A study of Arabidopsis thaliana with 20 samples.

Results

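The JAZ (jasmonate ZIM-domain) proteins are the repressors of jasmonate signalling in Arabidopsis thaliana, and 10 of their genes were read by gene identifier out of the 33602 genes of the chromatin-bound tables and the 33554 genes of the mRNA table. They are JAZ1 (AT1G19180), JAZ2 (AT1G74950), JAZ3 (AT3G17860), JAZ5 (AT1G17380), JAZ6 (AT1G72450), JAZ7 (AT2G34600), JAZ8 (AT1G30135), JAZ9 (AT1G70700), JAZ10 (AT5G13220) and JAZ12 (AT5G20900). All 10 were present in each table, and all 10 passed the filter on low values, a mean of at least 1 FPKM over the chromatin-bound columns. FPKM is the number of fragments scaled by gene length and by the library's total.

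The seedlings were wild type Col-0 or the double mutant rz-1b rz-1c, aged 10 days and grown at 22 °C with 16 h light and 8 h dark. RZ-1B and RZ-1C are RNA-binding proteins known to act in splicing. Chromatin-bound RNA is recovered from washed chromatin pellets and enriched for nascent transcripts. Steps to remove rRNA and polyadenylated RNA were applied, though annotated rRNA genes still took 31.6% to 60.5% of FPKM. Chromatin-bound RNA has 2 FPKM columns per genotype, numbered replicate 1 and replicate 2 (n = 2). Seedling mRNA has 1 value per genotype and a q-value in the authors' deposited table. The labels describe the genotypes by name only and do not say whether the replicates were separate cultures, and the p-values therefore cover only the spread between these columns.

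When the hormone jasmonoyl-isoleucine is made, for example after wounding, the receptor COI1 binds JAZ proteins and they are degraded. This frees transcription factors such as MYC2, which JAZ proteins hold inactive together with the adaptor NINJA and the co-repressor TOPLESS. The JAZ genes are themselves targets of MYC2, so their transcripts are a common readout of jasmonate signalling and part of its negative feedback. Transcripts of the family were measured here in whole seedlings, in which fewer cells expressing a gene and less RNA per cell cannot be told apart.

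The targeted gene RZ-1C (AT5G04280) stood at 16.7 and 13.1 FPKM in wild-type chromatin-bound RNA and at 4.59 and 4.27 in the mutant. RZ-1B (AT1G60650) was at 10.5 and 9.42 in Col-0, against 132 and 143 in the double mutant, opposite to its mRNA, which the authors' deposited table gives as 15.2 against 2.30 FPKM. The genotype labels are used as given. Total counts are not known, but the step of 1 fragment among low values gave depths relative to wild-type replicate 1 of 0.661 in the other wild-type column and of 1.85 and 1.97 in the mutant columns 1 and 2. Set directly against each other, mutant replicate 2 was at 1.06 of mutant replicate 1, but against wild-type replicate 2 the mutant columns came out at 1.40 and 2.98, so these depths are not settled to within a factor of 2. The 4 annotated rRNA genes took 53.6% and 60.5% of all FPKM in the wild-type replicates 1 and 2 and 31.6% and 34.1% in the mutant replicates. Of the tissue markers, the 4 shoot genes summed to between 950.2 and 1156 FPKM over the 4 columns and the 4 root genes, mostly PYK10, to between 283 and 416. Single markers moved within these sums: limma called LHCB2.1 and LHCB3 of the shoot list and IRT1 of the root list higher in the mutant (adjusted p = 0.0365, 0.0367 and 0.00104) and PRP3 of the root list lower (0.0326). IRT1 passed the filter on low values only through the mutant columns, whose mean was 12.2 FPKM against 0.122 for Col-0. Its mRNA moved the other way, from 8.71 to 2.47 FPKM (q = 0.000620, authors' deposited table). The 4 seed genes summed to 3.95 and 0.298 FPKM in the wild type, with 3 of them listed at 0 in replicate 2, and to 67.2 and 92.8 in the mutant. In mRNA the seed genes summed to 9.99 FPKM in the wild type against 580 in the mutant, from the authors' deposited table. The shoot genes summed there to 20639 against 20250 and the root genes to 2355 against 2229. Of the root genes besides IRT1, PRP3 fell there from 81.1 to 27.7 and COBL9 from 7.99 to 3.11 (both q = 0.000329). PYK10 stood at 2258 against 2195 (q = 0.891, authors' deposited table). The part of tissue make-up in the JAZ values was not tested in either kind of RNA.

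The JAZ genes were abundant in chromatin-bound RNA, and for all 10 the columns of one genotype overlapped those of the other. In the wild type their mean levels ran from 9.94 ± 6.27 FPKM (SD, n = 2) for JAZ8 to 95.01 ± 22.2 for JAZ6, and in the mutant from 18.7 ± 10.01 for JAZ8 to 115 ± 36.3 for JAZ1. JAZ1 was the highest member in 3 of the 4 columns, and JAZ8 the lowest in 3 of the 4. Between these ends the order was not resolved. In the wild type it ran JAZ6, JAZ1, JAZ9, JAZ2, JAZ10, JAZ5, JAZ12, JAZ7, JAZ3 and JAZ8, and each neighbouring pair was closer than the larger SD of the pair except JAZ3 and JAZ8, whose gap of 12.01 FPKM compared with an SD of 11.8. In the mutant the single gap above the larger SD lay between JAZ1 and JAZ6, at 52.7 FPKM against 36.3.

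**Figure D1:**
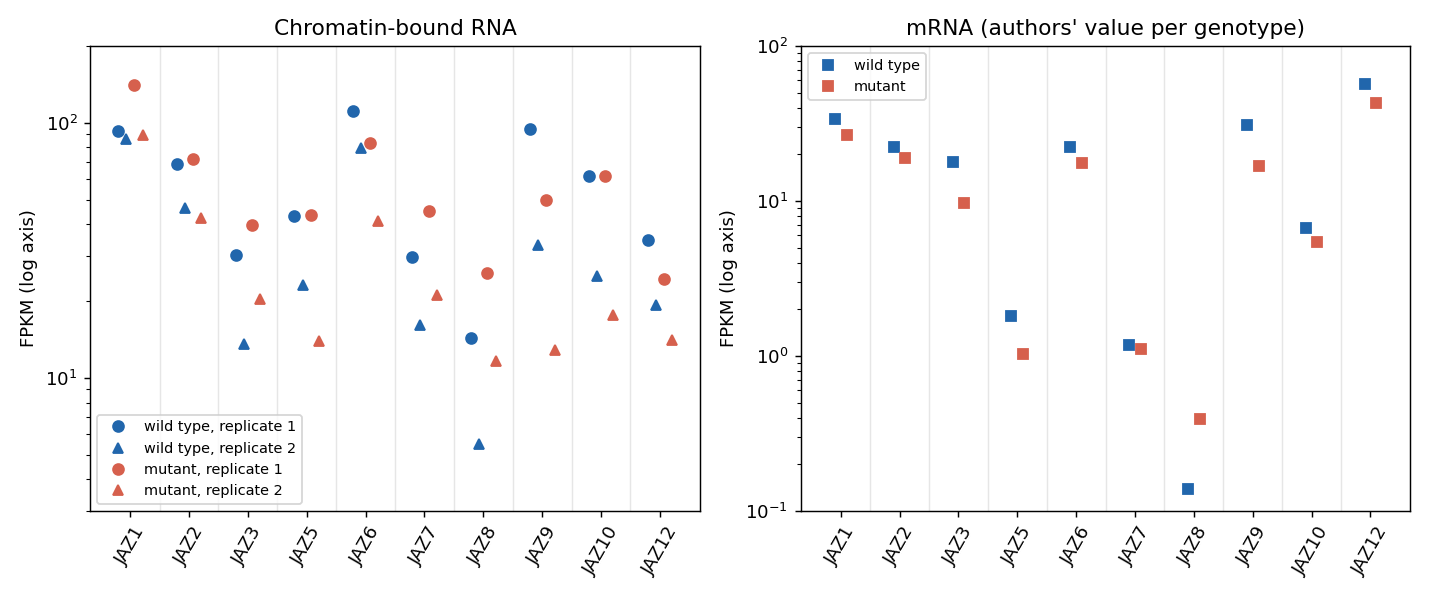
FPKM of the 10 JAZ genes on log axes, in the 4 chromatin-bound columns (left; circles replicate 1, triangles replicate 2) and as the authors' single value per genotype in mRNA (right; squares). In chromatin-bound RNA each gene's circle stands above the triangle of the same genotype, and the genotypes overlap for every member.

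Among the canonical repressors, JAZ1, one of the first members shown to be degraded through COI1, was at 93.2 and 86.4 FPKM in replicates 1 and 2 of Col-0, against 141 and 89.5 in those of the double mutant. Mutant replicate 1 stood above the other 3 columns, which lay close together. JAZ2, which acts in stomatal guard cells, was at 68.6 and 46.4 in Col-0, against 71.8 and 42.4 in the double mutant. The replicate 1 values were alike, as were the replicate 2 values, so its genotypes overlapped fully. JAZ6 was at 111 and 79.3 in Col-0, against 83.6 and 41.3 in the double mutant, and only mutant replicate 2 lay well below the rest.

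JAZ3, known from the jai3 mutant whose truncated protein blocks jasmonate responses, was at 30.3 and 13.6 FPKM in Col-0, against 39.6 and 20.4 in the double mutant. JAZ12, whose protein is a substrate of the ubiquitin ligase KEG, was at 34.6 and 19.3 in Col-0, against 24.4 and 14.01 in the double mutant. In both genes the genotypes spanned overlapping ranges, with replicate 1 high and replicate 2 low. The JAZ12 span overlaps AT5G20910 in the RefSeq table, a gene at between 4.77 and 6.92 FPKM over the columns. The libraries mark strand, but the sources used here do not say whether counting used it.

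JAZ9 had the widest spread. It was at 94.1 and 33.1 FPKM in Col-0, against 49.7 and 12.8 in the double mutant, so the lower wild-type column lay under the higher mutant column. JAZ5 was at 43.0 and 23.1 in Col-0, against 43.5 and 13.9 in the double mutant. JAZ10, which is known for splice variants that lack part of the Jas motif that COI1 binds, was at 61.77 and 25.1 in Col-0, against 61.77 and 17.7 in the double mutant. For JAZ5 and JAZ10 the replicate 1 columns of both genotypes were nearly equal, and the mutant's replicate 2 was the lowest column.

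JAZ7 and JAZ8 encode short members. The JAZ8 protein lacks the canonical degron and resists COI1-dependent breakdown. JAZ7 was at 29.9 and 16.1 FPKM in Col-0, against 45.1 and 21.1 in the double mutant. JAZ8 was at 14.4 and 5.51 in Col-0, against 25.8 and 11.6 in the double mutant. Both had their highest value in mutant replicate 1 and their lowest in wild-type replicate 2, and wild-type replicate 1 lay above mutant replicate 2, so the genotypes overlapped.

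Between genotypes, limma with no term for the replicate number called 0 of the 10 JAZ genes in chromatin-bound RNA at an adjusted p under 0.05, where 17.4% of the 19694 genes tested were called, 13.2% higher and 4.24% lower, and 0 of the 10 had an unadjusted p under 0.05. The split over all genes, 2595 higher and 835 lower, became 1329 and 1544 after median-of-ratios scaling, with 0 of the 10 called. The columns of the genotypes overlapped for all 10 members, whereas 65.2% of genes tested had both mutant columns above or both below the wild type. The members' median change, mutant minus wild type on log2(FPKM + 1), was -0.14, beside 0.27 for all genes tested. The largest changes were in JAZ9, at -1.11 (SE 0.65, limma adjusted p = 0.261), and JAZ8, at 0.88 (SE 0.47, limma adjusted p = 0.222). JAZ6 was at -0.66 (SE 0.33, limma adjusted p = 0.197) and JAZ12 at -0.46 (SE 0.34, limma adjusted p = 0.359). The other 6 members lay between -0.34 and 0.47, with limma adjusted p between 0.360 and 0.948. The SEs in this fit ran from 0.24 to 0.65, and the missed threshold does not show that the genotypes were alike. These SEs, and the overlap of the columns, include a gap between replicates that both genotypes shared, described below. In an alternative fit with the replicate number as a block 3 members were called, beside 4520 of the 19694 genes tested. The labels give no reason to pair equal numbers. The sign of JAZ1, 0.32 as deposited, turned to -0.01 when rRNA genes were removed and the columns rescaled.

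**Figure D2:**
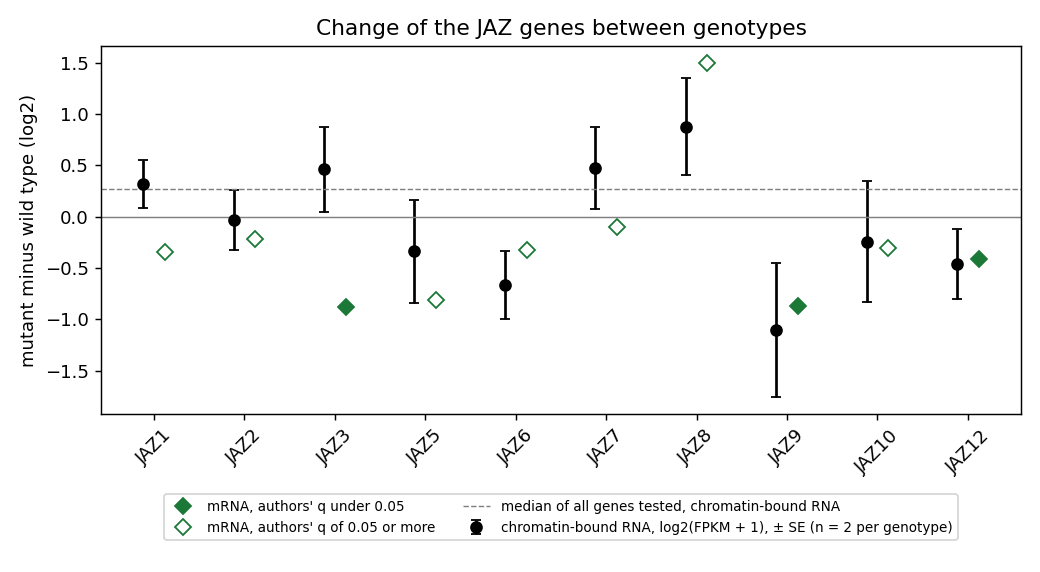
Mutant minus wild type on the log2 scale for each JAZ gene. Black circles are chromatin-bound RNA on log2(FPKM + 1) with the SE (n = 2 per genotype), green diamonds the log2 ratio of the authors' mRNA values, filled where their q is under 0.05. The filled diamonds are JAZ3, JAZ9 and JAZ12, and the dashed line is the 0.27 median of all genes in chromatin-bound RNA.

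In mRNA, 3 of the 10 JAZ genes had a q under 0.05 in the authors' deposited table, and all 3 were lower in the mutant. Of the genes with a q under 1, 34.6% were called there, 16.9% higher and 17.7% lower, so the number called lies near the background for calls in either direction. JAZ9 fell from 30.7 to 16.8 FPKM, a log2 ratio of -0.87 (q = 0.000329, authors' deposited table). JAZ3 fell from 17.9 to 9.74, a log2 ratio of -0.88 (q = 0.000329, authors' deposited table). JAZ12, the most abundant JAZ mRNA, fell from 57.03 to 42.8, a log2 ratio of -0.41 (q = 0.0370, authors' deposited table). The smallest q in that table is 0.000329, shared by 3168 genes, so it ranks no gene among them.

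The authors' deposited table gives JAZ1 as 33.9 FPKM in the wild type against 26.8 in the mutant (q = 0.0635), JAZ2 as 22.2 against 19.1 (q = 0.311) and JAZ6 as 22.1 against 17.6 (q = 0.114). JAZ10 stood at 6.72 against 5.45 (q = 0.390), JAZ5 at 1.82 against 1.04 (q = 0.0891) and JAZ7 at 1.18 against 1.10 (q = 0.911) in the authors' deposited table. JAZ8 was near the bottom of the authors' deposited table, at 0.138 against 0.390 with a q of 1, and was the 1 member whose value was higher in the mutant. All 9 members that reached 1 FPKM in either genotype had a lower value in the mutant in the authors' deposited table, as did 50.9% of all such genes. Their median log2 ratio was -0.34, beside -0.01 for all such genes. The members share the regulator MYC2 and rest on 1 value per genotype, so this count is not of independent genes. Of the 3 called mRNAs, JAZ9 and JAZ12 also had a negative change in chromatin-bound RNA and JAZ3 a positive one, all without a call there. For 7.13% of genes tested with a q under 1 the chromatin-bound columns were apart with a called mRNA value on the other side. No member could meet this criterion, since the columns of the genotypes overlapped for all 10. Whether the change of a member differed between the kinds of RNA was not tested, since the mRNA table holds no replicate values.

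The rank of the members within each kind of RNA separated the family. In wild-type chromatin-bound RNA, JAZ5 stood at the 91.02 percentile of the genes above 0 FPKM, JAZ7 at 85.0, JAZ8 at 63.1 and JAZ10 at 94.2. In wild-type mRNA the same genes stood at 23.6, 19.8, 8.29 and 42.04. Each was thus at least 50 points lower in mRNA, as were 1.5% of the genes above 0 in both kinds of RNA, and these 4 of 10 were also at least 50 points lower in the mutant, where the share of all genes was 1.58%. JAZ12 stood at 88.0 in chromatin-bound RNA and at 88.9 in mRNA, and the other 5 members were between 17.1 and 26.4 points lower in mRNA. The bound of 50 points was chosen after the values were seen. Only genes above the 50 percentile in chromatin-bound RNA could meet it. All 10 members were at 63.1 or above there in the wild type, whereas many other genes were too low. The shares of all genes are thus not for genes of like rank. Of the other jasmonate genes, CYP94B3 and CYP94C1, cytochromes P450 that oxidise the active hormone, were at least 50 points lower in both genotypes, and the lipoxygenase genes LOX3 and LOX4 in the mutant.

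**Figure D3:**
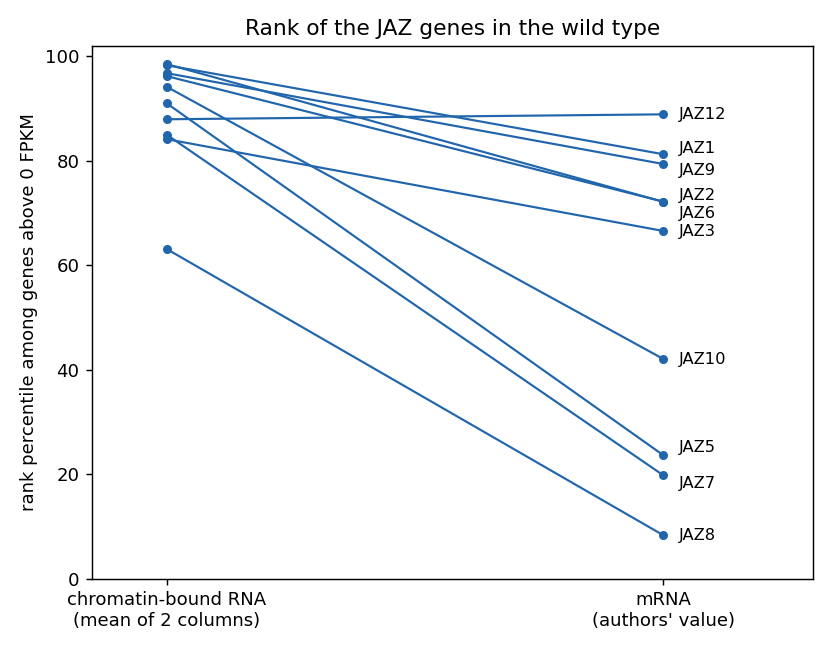
Rank percentile of each JAZ gene among genes above 0 FPKM in the wild type, in chromatin-bound RNA (mean of 2 columns) and in mRNA (authors' value). JAZ5, JAZ7, JAZ8 and JAZ10 end far lower in mRNA, JAZ12 stays level, and the other 5 drop by 17.1 to 26.4 points.

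The JAZ genes had a gap between replicates of chromatin-bound RNA that both genotypes shared. Replicate 1 was above replicate 2 for 10 of 10 JAZ genes in both genotypes, as it was for 42.0% of all genes tested. The median ratio of replicate 1 to replicate 2 over the members was 1.86 in Col-0 and 2.08 in the double mutant, beside 1.14 and 1.07 over all genes tested. At a bound of 1.5-fold in both genotypes, 7 of the 10 passed, JAZ3, JAZ5, JAZ7, JAZ8, JAZ9, JAZ10 and JAZ12, beside 2.73% of all genes tested. The opposite gap, replicate 2 above replicate 1 by that much, was found for 0 members and 0.736% of genes. The members share the regulator MYC2 and were read in the same columns, so these counts are not of independent genes. The gap rests on 1 pair of columns per genotype. Whether its shared direction reflects only how the replicates were numbered was not tested.

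The gap was largest for JAZ9, at 2.84-fold in Col-0 and 3.88-fold in the double mutant. It was 2.46-fold and 3.496-fold for JAZ10, 2.61-fold and 2.22-fold for JAZ8, and 1.86-fold and 3.12-fold for JAZ5. For JAZ1 it was 1.08-fold and 1.57-fold, the smallest of the family. Ranked by the smaller of the 2 ratios among the 13894 genes that averaged 5 FPKM or more with no column at 0, JAZ9 was number 4, JAZ10 number 10 and JAZ8 number 14. JAZ1 was number 3585.

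The depth and rRNA content of the columns moved with this gap in the wild type, where replicate 2 was the shallower and richer in rRNA, and in the mutant replicate 2 was again the richer in rRNA, at 34.1% against 31.6%. Their part in the gap was not tested. After median-of-ratios scaling, quantile normalization or removal of rRNA genes, 7 of 10 members passed the 1.5-fold bound in each case, with 1.60%, 1.38% and 2.25% of all genes. The labels do not say whether a replicate number marks a shared harvest, and what the replicates differed in was not tested. The bound and this comparison were chosen after the data were seen.

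**Figure D4:**
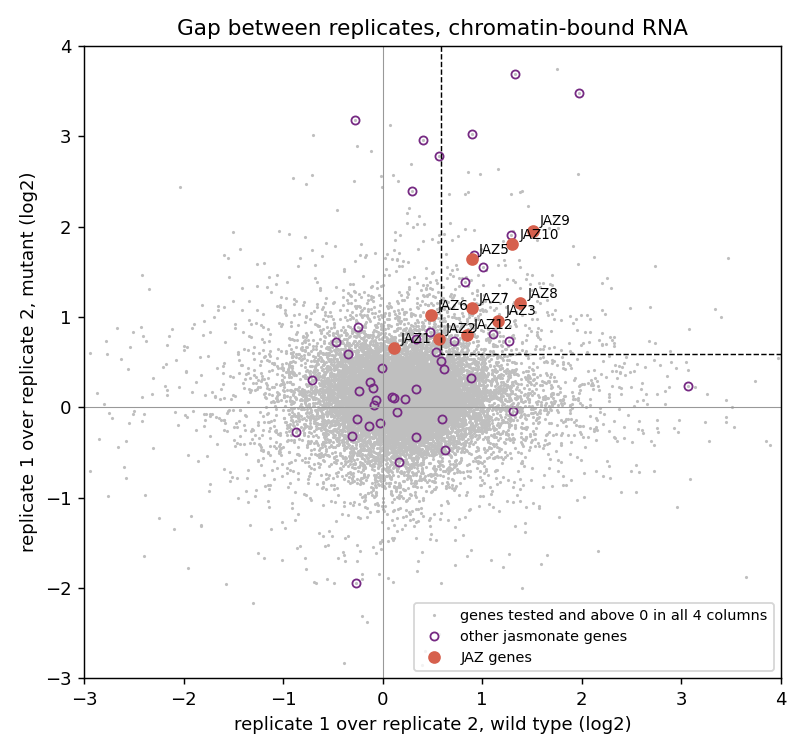
Log2 ratio of replicate 1 to replicate 2 in chromatin-bound RNA, wild type on the x axis and mutant on the y axis, for 19202 genes tested and above 0 in all columns (grey; 34 lie beyond the axes), 47 other jasmonate genes (purple rings) and the 10 JAZ genes (red). The dashed corner marks 1.5-fold in both genotypes, and 7 JAZ genes lie in it.

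The gap was shared by part of the jasmonate pathway. Beside 2.73% of all genes tested, 10 of 48 other jasmonate genes tested had replicate 1 at least 1.5-fold above replicate 2 in both genotypes. They included 5 of 12 genes for hormone synthesis, AOS, AOC1, AOC2, AOC3 and OPR3, and 3 of 9 for hormone turnover, CYP94C1, IAR3 and ILL6. OPR3, the peroxisomal reductase of the pathway, was at 107 and 53.3 FPKM in Col-0, against 117 and 39.8 in the double mutant. ILL6, an amidohydrolase that cleaves the hormone conjugate, was at 44.3 and 18.1 against 49.01 and 13.1. AOC1, AOC2 and AOC3 are near-identical neighbouring copies, so their reads cannot be assigned with certainty. The 48 genes were read in the same columns as the JAZ genes, so their count is not of independent genes either.

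The receptor and co-repressor genes did not have this gap, with 0 of 6 past the bound. COI1 was at 22.7 and 23.7 FPKM in Col-0, against 26.4 and 25.05 in the double mutant, and TPL, the TOPLESS gene, at 98.8 and 101 against 87.6 and 98.4. Of the transcription factors and their partners 0 of 7 tested passed the bound, which does not set them apart either. JAM1 was close to it, at 1.45-fold in Col-0 and 1.53-fold in the double mutant. MYC2 went from replicate 1 to replicate 2 in opposite senses in the genotypes, with 111 and 72.3 FPKM in Col-0, against 98.6 and 137 in the double mutant.

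Of the 3 JAZ genes outside the 10, JAZ4 (AT1G48500) stood at 0.570 and 0 FPKM in wild-type chromatin-bound RNA and at 1.99 and 1.94 in the mutant. It passed the filter only through the mutant columns and rose by 1.24 on log2(FPKM + 1) (SE 0.34, limma adjusted p = 0.0454). The call was lost after median-of-ratios scaling, quantile normalization or rRNA removal (limma adjusted p = 0.0725, 0.111 and 0.0746). It was also lost without the filter (0.0600) and with 0.1 added in place of 1 (0.102). JAZ4 kept its call in 3 of the 10 alternatives in which it was tested. It failed the filter with either mutant column left out and at a mean of at least 5 FPKM. With 1 wild-type column left out the change was 0.92 or 1.57. JAZ11 (AT3G43440) was at 5.39 and 5.05 against 5.47 and 5.04, with the replicates close together. JAZ13 (AT3G22275), like JAZ8 a member without the canonical degron, was at 3.47 and 1.61 against 2.09 and 1.19. In the authors' deposited table JAZ4 stood at 2.39 against 2.42 FPKM (q = 0.967), JAZ11 at 13.8 against 10.5 (q = 0.0998) and JAZ13 at 0.451 against 0.0524 (q = 1). The related PEAPOD genes PPD1 and PPD2 passed neither test, and PPD2 mRNA was at 16.1 against 16.8 in the authors' deposited table (q = 0.797).

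Among the genes that act with JAZ proteins, MYC2 carried the clearest change, in mRNA. The authors' deposited table gives it as 48.6 FPKM in Col-0 against 18.2 in the double mutant, a log2 ratio of -1.42 (q = 0.000329), and it was the single call among 8 transcription factors and partners. In chromatin-bound RNA MYC2 was called neither way, with a change of 0.37 (SE 0.26, limma adjusted p = 0.339), and limma called 0 of the 7 tested (0 also at an unadjusted p under 0.05). JAM1, a bHLH repressor of the same targets, was at 46.1 and 31.7 FPKM against 64.5 and 42.3. Over all genes tested 17.4% were called in chromatin-bound RNA, and 34.6% of those with a q under 1 in mRNA. Of the 6 receptor and co-repressor genes 0 were called in either kind of RNA. There ASK1 had the 1 unadjusted p under 0.05 by limma, TPL and CUL1 had chromatin-bound changes of -0.10 and -0.08, and the mRNA of ASK1 and CUL1 stood at q = 0.785 and 0.632 in the authors' deposited table.

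Of 12 synthesis genes limma called 4 higher and 1 lower in chromatin-bound RNA, beside 13.2% and 4.24% of all genes tested. The authors' deposited table called 2 higher and 4 lower in mRNA, beside 16.9% and 17.7% of genes with a q under 1. LOX3, a lipoxygenase at the head of the pathway, was at 56.03 and 37.1 FPKM in Col-0, against 123 and 135 in the double mutant (limma adjusted p = 0.00753). Its mRNA went the other way in the authors' deposited table, from 10.9 to 3.80 (q = 0.000329). LOX4 rose from 116 and 92.2 to 179 and 224 (limma adjusted p = 0.0236), while its mRNA fell from 16.96 to 2.58 (q = 0.000329, authors' deposited table). OPCL1, a ligase that prepares the precursor for beta-oxidation, rose from 75.9 and 68.5 to 127 and 132 (limma adjusted p = 0.0179), and its mRNA fell from 31.6 to 16.5 (q = 0.000329, authors' deposited table). LOX2, the plastid lipoxygenase, showed the reverse, from 125 and 83.1 to 30.7 and 21.6 in chromatin-bound RNA (limma adjusted p = 0.00498) and from 47.02 to 98.8 in mRNA (q = 0.000329, authors' deposited table).

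LOX6 was called higher, by 0.89 on the log2 scale (SE 0.18, limma adjusted p = 0.0200), and its mRNA was not (q = 0.748, authors' deposited table). After median-of-ratios scaling LOX4 and LOX6 were no longer called (limma adjusted p = 0.0670 and 0.0583), and LOX3 was the 1 jasmonate gene still called higher, so OPCL1 lost its call too. With either mutant column left out, 0 jasmonate genes were called higher. Without mutant replicate 1 the adjusted p was 0.0705 for LOX3, 0.0930 for LOX4 and 0.180 for LOX6 by limma, and without mutant replicate 2 it was 0.0912, 0.183 and 0.107, with 0.0698 for LOX2. Without wild-type replicate 2 that of LOX4 was 0.0671.

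**Figure D5:**
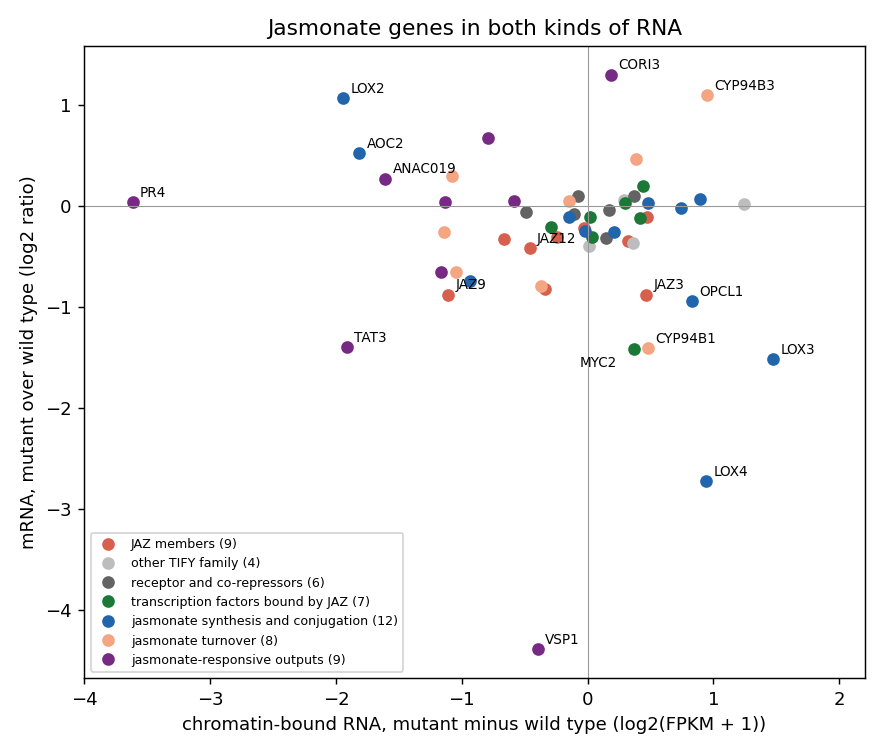
Change of jasmonate genes in chromatin-bound RNA (x axis, mutant minus wild type on log2(FPKM + 1)) and in mRNA (y axis, log2 ratio of the authors' values), coloured by list with the number drawn, for genes tested in chromatin-bound RNA and with at least 1 FPKM in mRNA. LOX3, LOX4 and OPCL1 lie at the lower right, LOX2 and AOC2 at the upper left, and the JAZ genes near the centre with JAZ3 and JAZ9 lowest among them.

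In the turnover list limma called 0 of 9 genes in chromatin-bound RNA, with 3 at an unadjusted p under 0.05. The authors' deposited table called 1 higher and 2 lower in mRNA. Over all genes 17.4% were called in chromatin-bound RNA, and 34.6% of those with a q under 1 in mRNA. The turnover counts thus lie near or below the background. CYP94B3 was at 63.2 and 34.1 FPKM in chromatin-bound RNA of Col-0, against 101 and 81.01 in the double mutant (limma adjusted p = 0.0642). The CYP94B3 mRNA rose from 1.96 to 4.20 (q = 0.00189, authors' deposited table). JOX2, which hydroxylates jasmonate, was at 82.7 and 56.01 against 78.1 and 11.4. CYP94B1 mRNA fell from 10.8 to 4.07 (q = 0.000329) and that of the sulfotransferase ST2A from 10.4 to 6.02 (q = 0.000620), both in the authors' deposited table.

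Of the outputs of the pathway, limma called 0 of 9 higher and 4 lower in chromatin-bound RNA, beside 13.2% and 4.24% of all genes tested. The authors' deposited table called 1 of 10 higher and 3 lower in mRNA, beside 16.9% and 17.7% of genes with a q under 1. PR4, an antifungal protein gene of the branch that also needs ethylene, was at 44.1 and 80.7 FPKM in Col-0, against 3.59 and 4.35 in the double mutant (limma adjusted p = 0.00104). Its mRNA stood at 204 against 209 (q = 0.871, authors' deposited table). TAT3, a tyrosine aminotransferase induced by jasmonate, fell from 10.8 and 8.18 to 4.05 and 0.520 in chromatin-bound RNA (limma adjusted p = 0.0448). In the authors' deposited table its mRNA fell from 5.57 to 2.11 (q = 0.000329). The NAC factor genes ANAC019 and ANAC055 fell by 1.61 and 1.13 on the log2 scale in chromatin-bound RNA (limma adjusted p = 0.0164 and 0.0350). ANAC019 passed the filter only through the wild-type columns, with a mean of 3.37 FPKM there and 0.457 in the mutant.

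In mRNA, VSP1, a vegetative storage protein gene and standard jasmonate marker, fell from 29.5 to 1.41 FPKM (q = 0.000329, authors' deposited table). VSP2 fell from 10.9 to 6.99 (q = 0.00322) and CORI3 rose from 5.71 to 14.1 (q = 0.000329), both in the authors' deposited table. In chromatin-bound RNA these 3 genes were near the floor, between 0.150 and 5.47 FPKM over the columns, and none was called by limma. The TAT3 call was lost without wild-type replicate 1, wild-type replicate 2 or mutant replicate 2 (limma adjusted p = 0.10, 0.0786 and 0.171), the ANAC019 call without mutant replicate 1 or 2 (0.136 and 0.0845), and the ANAC055 call without wild-type replicate 2, mutant replicate 1 or mutant replicate 2 (0.0937, 0.0614 and 0.211).

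Since no JAZ gene was called, the genes nearest in profile were taken for JAZ1, the member with the highest mean, by the Euclidean distance of log2(FPKM + 1) centred per gene over the 4 chromatin-bound columns, among the 13946 genes that averaged 5 FPKM or more. The nearest was AT4G03000, at 8.94 and 8.49 FPKM in Col-0, against 14.8 and 8.73 in the double mutant, at a distance of 0.0555. PEL1 (AT4G27650), SCAR4 (AT5G01730), AT3G01360 and AT4G29000 followed, at distances of 0.0633 to 0.0817. With 4 columns such nearness is a description of these libraries.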

How the data were processed

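For chromatin-bound RNA the authors deposited FPKM values in 2 columns per genotype, although each replicate number has 2 libraries in the labels; the sources used here do not say how these were combined. Left out was 1 column of per-sample values that repeats mutant replicate 2 in all 33602 rows. For mRNA (3 libraries per genotype) the authors deposited 1 FPKM-like value per genotype, whose unit the file does not write, and q-values, per the file headers; log2 ratios were recomputed from the 2 values. Cuffdiff 2.2.1, Cufflinks, StringTie 1.3.4d, TopHat2 2.1.1 and HISAT2 2.0.5 are listed, without roles, per the submitters' processing notes, as is TAIR10. Libraries from iCLIP were not used here.

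The test between genotypes was limma 3.58.1 (R 4.3.3, intensity trend) on log2(FPKM + 1), 2 against 2 columns, for the 19694 genes that averaged 1 FPKM or more, with Benjamini-Hochberg adjustment over them and a threshold of 0.05. This scale understates changes of low genes. The genotypes stand in separate tables scaled to their own totals, so rescaled fits are given as alternatives. The procedure was tested on simulated data with independent noise in each column. The simulation held no shared replicate gap and no difference in depth or rRNA, so it does not cover these features. Names follow the RefSeq table of TAIR10.1, where 32835 identifiers matched; its coordinates are not printed because the build differs in name. All 279 organelle genes are listed at 0 in each chromatin-bound column, so an exact 0 is reported as listed at 0. The JAZ genes and the lists of jasmonate genes were chosen with earlier results of these data known. Named genes are all JAZ genes, up to 4 called members of each list by size of change in each kind of RNA or its 2 highest where none was called, and the 5 genes nearest in profile; COI1, OPR3, ILL6, AOC2 and the genes named for a replicate gap or a rank difference fall outside this rule and were chosen after their values were seen.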

Additional observations from a re-analysis of the deposited data

Results flagged for a closer look

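For 5 of 12 jasmonate synthesis genes both mutant columns of chromatin-bound RNA lay on 1 side of the wild type while the authors' mRNA value, with a q under 0.05, lay on the other. The difference between the kinds of RNA was not tested, as the mRNA table has no replicates, and 7.13% of the genes tested with a q under 1 met the same criterion. LOX2 changed by -1.94 on log2(FPKM + 1) in chromatin-bound RNA, with a log2 ratio of 1.07 in mRNA. LOX3 changed by 1.48 against -1.52, LOX4 by 0.94 against -2.72 and OPCL1 by 0.83 against -0.94. AOC2 had a change of -1.81 against 0.52, without a call in chromatin-bound RNA (limma adjusted p = 0.136), and shares near-identical sequence with its neighbours AOC1 and AOC3. Its columns were only just apart, at 46.4 and 24.9 FPKM in Col-0, against 24.1 and 2.97 in the double mutant. None of the 10 JAZ genes could meet this criterion, since their columns overlapped between the genotypes.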

How the results depend on the processing

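The count of JAZ genes called in chromatin-bound RNA stayed at 0 in every alternative without the replicate number as a term. With the replicate number as a block it was 3, JAZ8 higher and JAZ6 and JAZ9 lower (limma adjusted p = 0.0133, 0.0435 and 0.00462), and with the block after median-of-ratios scaling, chosen after seeing the data, it was 3, all lower, namely JAZ6, JAZ9 and JAZ12. The labels give no reason to pair equal numbers, and over all genes tested the deviations of same-numbered columns correlated across genes with Pearson's r = 0.0142, which does not meet the bar for pairing; the block therefore does not enter the main results, and whether a number marks a shared harvest is not known. Of all 19694 genes tested 4520 were called with the block, and 2933 of 19662 with the block after median-of-ratios scaling. The other jasmonate genes called numbered 16 of 48 with the block, against 10 without it.

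Of the 48 other jasmonate genes tested 10 were called, 5 higher and 5 lower, beside 17.4% of all genes tested. After median-of-ratios scaling 1 was higher and 7 lower, and without the filter 6 were called. Leaving out 1 column moved this count between 1 and 12, and that of all genes, 3430, between 227 and 4988 (348 without mutant replicate 1 and 227 without mutant replicate 2). Without the filter 1931 genes were called. Scaling by median-of-ratios gave 1329 higher and 1544 lower in place of 2595 and 835, quantile normalization 1445 and 1541, and rRNA removal 1170 and 1698, as the median change of all genes moved from 0.27 to 0.02, 0.01 and -0.02. The JAZ1 change turned to -0.0051 after rRNA removal. With 1 column left out, where the lone column is assumed to vary like the others, log2 changes ran from -0.0040 to 0.65 for JAZ1, -0.41 to 0.34 for JAZ2, -0.089 to 1.01 for JAZ3, -1.13 to 0.45 for JAZ5, -0.057 to 1.01 for JAZ7 and -1.12 to 0.63 for JAZ10, all without a call. They ran from -1.16 to -0.16 for JAZ6, 0.26 to 1.5 for JAZ8, -2.05 to -0.17 for JAZ9 and -0.87 to -0.05 for JAZ12, which kept their sign. JOX2 ran from -2.48 to 0.19. At a bound of 2-fold, 3 JAZ genes kept the shared replicate gap, beside 0.665% of genes. At a q under 0.01, 2 JAZ mRNAs were called, without JAZ12.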

Other observations

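The genes with the widest replicate gap shared by both genotypes were listed after the JAZ pattern was seen. Of the first 15 by the smaller of the 2 ratios, 3 were JAZ genes and 2 others were AOC1 and ILL6. The widest was LTI78 (AT5G52310), also called RD29A, a marker of cold, drought and abscisic acid, at 11.8 and 3.47 FPKM in Col-0 replicates 1 and 2, against 45.1 and 11.4 in the double mutant. KIN2 (AT5G15970), a cold-regulated gene, was at 13.4 and 4.52 against 25.7 and 9.94, and HVA22D (AT4G24960), of an abscisic acid-responsive family, at 16.7 and 5.12 against 25.5 and 9.25. CLH1 (AT1G19670), a chlorophyllase gene known to respond to coronatine and jasmonate, was at 24.8 and 10.5 against 5.26 and 2.44.

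The opposite gap was widest in GRP23 (AT2G32690), at 10.999 and 27.2 FPKM in Col-0, against 7.11 and 31.9 in the double mutant, and in EARLI1 (AT4G12480), at 41.01 and 90.5 against 1.27 and 2.72.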
